A study of Mus musculus with 4 samples.

Results

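The proteins of the small subunit of the cytosolic ribosome were examined in reconstituted ovaries (rOvaries) of premature aging mice treated with or without INK128. The members were 28 genes taken by symbol from the deposited count table, namely the listed Rps genes, Rpsa and Fau, without pseudogenes, out of 54021 symbols in all. All 28 were found, and all 28 passed the filter on low values (a mean above 10 CPM, read counts scaled to a common library size, over the 4 libraries). RNA-seq gave 4 libraries of rOvaries, with INK128 replicates 1 and 2 set against replicates 1 and 3 of recipients that received no INK128 (controls), 2 libraries per group. Every recipient was a bilaterally ovariectomized G2 Terc-/- female of C57BL/6 background, 2 to 3 months old, that is, a second-generation mouse without telomerase RNA and with shortened telomeres. Every graft was an aggregate of primordial germ cells and somatic cells from fetal gonads of C57BL/6 mice carrying actin-GFP, placed under the kidney capsule and collected 1 month later. The INK128-treated recipients drank water with the mTOR kinase inhibitor at 0.75 μM per g body weight according to the labels. The methods of the study state a different dose. A vehicle for the controls is not given in the sources used here. An rOvary is a mixture of donor follicles and stroma with host vessels, blood cells and any kidney tissue that stays attached, and the number of grafts or recipients behind each library is not given in the sources used here.

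The small subunit binds the mRNA, scans for the start codon and checks each codon against its tRNA, and it joins the large subunit to form the translating ribosome. Its proteins sit on a single ribosomal RNA that folds into a head and a body, and most are needed in equal number, 1 copy per subunit. Rps6 is the classical substrate of the S6 kinases, which act downstream of mTORC1. In vertebrates the mRNAs of ribosomal proteins begin with a C followed by a run of pyrimidines, the terminal oligopyrimidine (TOP) motif, through which mTORC1 and the RNA-binding protein LARP1 control their translation and stability. In the ovary, mTOR signaling is known for its part in the activation of primordial follicles, and growing oocytes store ribosomes for the early embryo.

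Sequences near the annotated starts are shown here because the members moved together and because TOP runs are the feature that links these mRNAs to mTOR. RefSeq starts (GRCm38.p6, the sequence of mm10) were matched by symbol for 24 of the 28 members, with 28 starts in all. Rps14, Rps20, Rps27a and Rps29 were not matched. In the lines below, 30 bases of the gene's own strand are written 5′ to 3′. Capitals mark the longest run of C and T that begins with C within 50 bases of the start. Each line is placed around this run, so the lines of Rps28, Rps15 and Rps2 do not reach the start. Relative to the start, the run begins at base −35 in Rps28 and −2 in Rps18. It begins at base 26 in Rps15, 5 in Rps26 and 41 in Rps2. The Rps2 run ends where the sequence used ends, and may be longer.
Rps28: ctggtgacgaCTCTgtcccgaggattcctg
Rps15: gcagcccgtaCTTCCTTTTCCgagtaaccg
Rps26: gccgccggatCCTCTTTCgagtcttggctc
Rps2: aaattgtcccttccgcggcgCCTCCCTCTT
Rps6: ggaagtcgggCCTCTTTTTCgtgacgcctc
Fau: cgcgcccccaCTTCTTCCTCTTTCTTgact
Rps18: gtcacttccgCTCTCTCTTCCacaggaggc
The first 2 have the largest fold changes among the matched members and the next 3 the smallest. Fau and Rps18 were added after their long runs close to the start had been seen. The windows are chr17:33824578-33824607 on the minus strand for Rps28, chr10:80292446-80292475 on the plus strand for Rps15, chr10:128626483-128626512 on the minus strand for Rps26, chr17:24720083-24720112 on the plus strand for Rps2, chr4:86857349-86857378 on the minus strand for Rps6, chr19:6057934-6057963 on the plus strand for Fau and chr17:33955648-33955677 on the minus strand for Rps18.

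Runs of 8 or more pyrimidines were found at 21 of the 28 member starts (75%), which belong to 18 members. The window reaches 50 bases to either side, and in 7 of the 24 matched members the longest run at a start began within 5 bases of that start, where a TOP motif would lie. Counted over starts, a longest run of 8 or more bases that began within 5 bases of the start was found at 7 of the 28 member starts (25%), at 20% of large subunit starts, at 2.89% of the starts of tested genes outside both subunits and at 2.83% of all starts. Runs of 8 or more bases anywhere in the window were present at 28.3% of all 32851 RefSeq starts in the table, at 27% of the 11228 starts of tested genes outside both subunits, and at 85% of 40 large subunit starts. Fau was among these 7 with a run of 16 bases that began 3 bases before the annotated start, and Rps6 a run of 10 bases that began 1 base before it. Rps28, which had the second largest fold change of all members, had no run longer than 4 bases in this window. In the 300 bases around the start, the letters CCGGAAG (the core bound by ETS-family factors, either strand) were found at 11 of the 28 member starts (39.3%), at 8.86% of all starts, at 17.3% of the starts of tested genes outside both subunits and at 35% of large subunit starts. The letters TATAA, either strand, were found at 8 of the member starts (28.6%), at 24.9% of all starts, at 13.3% of the starts of tested genes outside both subunits and at 20% of large subunit starts. These matches describe the letters in the annotated windows, and annotated starts can lie some bases from the start used in the ovary.

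Counts summed to between 19130209 and 23029089 per library. The libraries of 1 group were not alike in other genes. Over all 11758 genes tested, log2 CPM correlated with a Pearson's r of 0.98 between the INK128 replicates and of 0.806 between the controls. The sum of 4 Y-linked genes (Uty, Kdm5d, Ddx3y, Eif2s3y) came to 45.2 CPM in control replicate 1 and to 0 to 0.107 CPM in the other 3 libraries, and 4 Sertoli cell markers summed to 978 CPM in that library against 40.7 to 96.4 CPM in the others. The 6 oocyte markers summed to 685 and 463 CPM with INK128, whereas control replicates 1 and 3 held 430 and 14 CPM, with Figla at 1 count in the latter. The 6 granulosa cell markers summed to 5390 and 7261 CPM with INK128 and to 2497 and 5411 CPM in controls. Both INK128 values lay above both control values for 5 of the 6 oocyte and 3 of the 6 granulosa cell markers. They lay below both control values for 0 of either list. The share of all genes tested with both INK128 values above both control values was 34.5%. Single granulosa cell markers differed between control replicates 1 and 3, with Amh at 435 and 5.1 CPM and Inhba at 176 and 2088 CPM. The 10 kidney markers summed to 51.1 and 129 CPM with INK128 and to 585 and 1238 CPM in controls, and 9 of the 10 had both INK128 values below both control values, as had 34% of all genes tested. The 8 leukocyte markers summed to 88 and 79.4 CPM with INK128 and to 157 and 240 CPM in controls, and 6 of the 8 were lower with INK128. The 5 red blood cell markers summed to 97.4 and 91.4 CPM with INK128 and to 22.3 and 56.7 CPM in controls. Of these 5, 3 were higher with INK128 without overlap. Another 1, Alas2, was lower, with 1.99 and 1.33 CPM against 11.2 and 2.32 CPM. The part of these other cells in the results on ribosomal protein genes was not tested. In bulk tissue, fewer cells of a type and less RNA per cell cannot be told apart.

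Small subunit genes took a larger part of the RNA in the INK128-treated rOvaries. The 28 members held 3.53% and 3.60% of all counts in INK128 replicates 1 and 2, and 1.44% and 1.29% in control replicates 1 and 3. The group means were 3.57% ± 0.0486 and 1.36% ± 0.104 (SD, n = 2 each), a ratio of 2.61. Both INK128-treated rOvaries lay above both controls, and the difference was far larger than the spread within either group. With 2 libraries against 2, the two-sided exact permutation test gave p = 0.333, which is the smallest value it can give. Control replicates 1 and 3 lay 0.147 percentage points apart in this share.

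Gene by gene, all 28 members had both INK128 values above both control values. This held for 34.5% of all 11758 genes tested. The median log2 fold change of the members was 1.55 (2.93-fold), with a range from 1.12 to 2.15, and the median over all genes tested was −0.03. By edgeR's quasi-likelihood test, 24 of the 28 were called higher (fold change over 1.5, Benjamini-Hochberg adjusted p under 0.05), against 3.18% of all genes tested. 0 were called lower in edgeR, DESeq2 or limma voom, also at an unadjusted p below 0.05. The adjusted p-values stood close to the threshold, with 20 members at 0.0464, the lowest value of any gene, and the highest value of a called member at 0.0487. DESeq2 called all 28 as higher, with adjusted p-values from 1.63e-25 to 0.00302, where it called 13.6% of all genes as higher. limma voom called 0 of the 28, and all 28 had an unadjusted p below 0.05 in it (9.82e-05 to 0.0131), as had 18.3% of all genes in the same direction. The 28 fold changes ranked between 38 and 735 among the 11758 genes, so that the smallest lay at percentile 93.8.

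**Figure D1:**
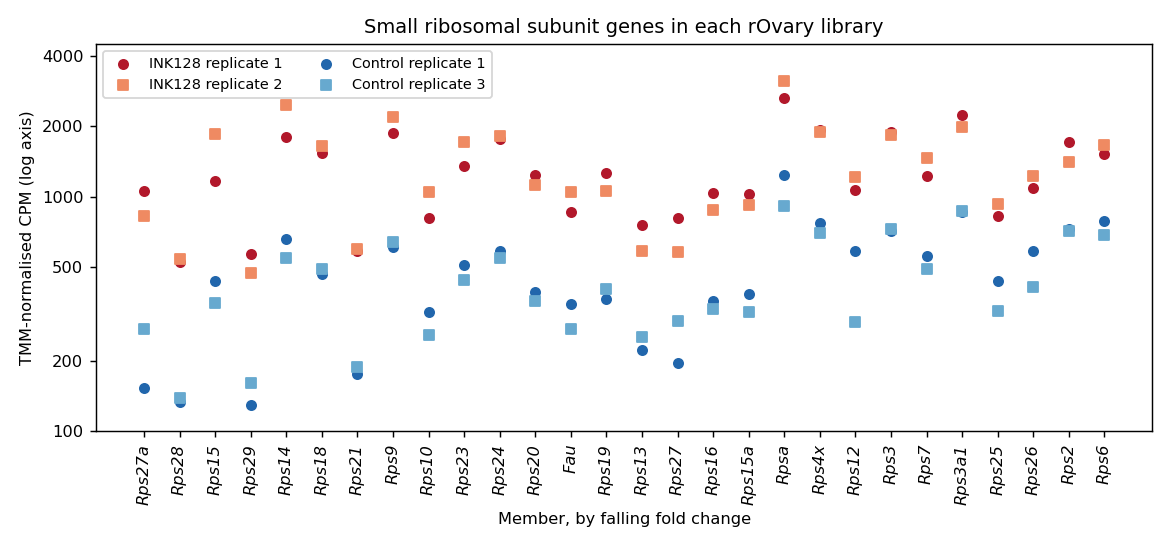
Normalised level of each small subunit gene in each of the 4 libraries (CPM with TMM factors, log axis), ordered by falling fold change, with red and orange points for INK128 and blue points for controls. For every gene both INK128 points lie above both control points, and the gap between the 2 controls is widest for Rps12 and Rps27a.

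The members differed in how much they rose. Rps27a, which is made as a fusion of ubiquitin with a head protein of the subunit, lies on chromosome 11 from 29545846 to 29548109 (mm10). It had 1063 and 827 CPM in INK128 replicates 1 and 2, and 153 and 274 CPM in control replicates 1 and 3. Its controls were 0.84 apart on the log2 scale, the second widest gap after that of Rps12. The log2 fold change was 2.15 (SE, the standard error, 0.36, with an edgeR adjusted p of 0.0484), the largest of the members. Without control replicate 1 it was 1.77, below the 1.93 of Rps28 in the same fit, and without control replicate 3 it was 2.62. An opposite-strand gene, Clhc1, overlaps Rps27a, and reads of the overlap are uncertain.

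Rps28, a small protein of the head that lies near the mRNA exit channel, is on chromosome 17 from 33819027 to 33824562. It had 527 and 541 CPM with INK128, and 133 and 139 CPM in controls. Replicates of each group were almost level, and the log2 fold change of 1.98 had the smallest standard error of the members (0.17, adjusted p = 0.0464, edgeR). An opposite-strand gene, Kank3, overlaps its annotated span. Rps15, whose tail reaches the decoding site, is on chromosome 10 from 80292453 to 80294114. It had 1171 and 1855 CPM with INK128 and 437 and 353 CPM in controls, so that the treated rOvaries were further apart than for any other member. The log2 fold change was 1.94 (SE 0.30, with an edgeR adjusted p of 0.0464). Rps29, the smallest member with 56 residues and a zinc-binding protein of the head, is on chromosome 12 from 69157722 to 69159186. It had 570 and 471 CPM with INK128 and 129 and 160 CPM in controls, a log2 fold change of 1.85 (SE 0.22, with an edgeR adjusted p of 0.0464). The order at the top depended on single libraries and on length. Without control replicate 1 the largest log2 fold change was that of Rps15 (2.09), followed by Rps12 (1.95) and Rps14 (1.94). With offsets for exon length in each library Rps24 (1.99) and Rps15a (1.79) came first. These have the longest annotated exon lengths of the members, 6256 and 6270 bases for 133 and 130 residues. Whether the annotation sets their place was not tested.

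At the lower end, Rps6 on chromosome 4 from 86854660 to 86857412 had 1532 and 1673 CPM with INK128, and 791 and 686 CPM in controls. The groups did not overlap, and the log2 fold change of 1.12 (SE 0.19, with an edgeR adjusted p of 0.0486) was the smallest of the 28. Rps2, which lines the entrance of the mRNA channel, lies on chromosome 17 from 24718116 to 24721929. It had 1720 and 1414 CPM with INK128 and 727 and 715 CPM in controls, a log2 fold change of 1.12 (SE 0.20, with an edgeR adjusted p of 0.0487). The order of Rps6 and Rps2 depended on single libraries and settings. Without INK128 replicate 1 the smallest value was that of Rps2, 0.98 against 1.18 for Rps6. With GC offsets it was also that of Rps2, 1.04 against 1.29 for Rps6. Rps26, at the mRNA exit, had 1093 and 1229 CPM against 588 and 414 CPM. Rps25, a head protein used by several viral internal ribosome entry sites, had 832 and 934 CPM against 437 and 325 CPM. Both had a log2 fold change of 1.21 and stood just past the threshold, with adjusted p-values of 0.054 and 0.0513 in edgeR. Rps25 overlaps Trappc4 and Ccdc84 on the opposite strand, and reads of these overlaps are uncertain.

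The other members that did not pass were Rps12 and Rps27. Rps12, a head protein, had 1075 and 1212 CPM with INK128 and 586 and 293 CPM in controls. Its controls lay further apart than those of any other member, and its log2 fold change of 1.38 had the largest standard error (0.38, adjusted p = 0.0805, edgeR). Rps27, a zinc-finger protein of the body, had 810 and 585 CPM against 195 and 295 CPM, with both pairs spread widely. Its log2 fold change was 1.51 (SE 0.31, with an edgeR adjusted p of 0.0534). For all 4 members that edgeR did not call, both treated values still lay above both controls.

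**Figure D2:**
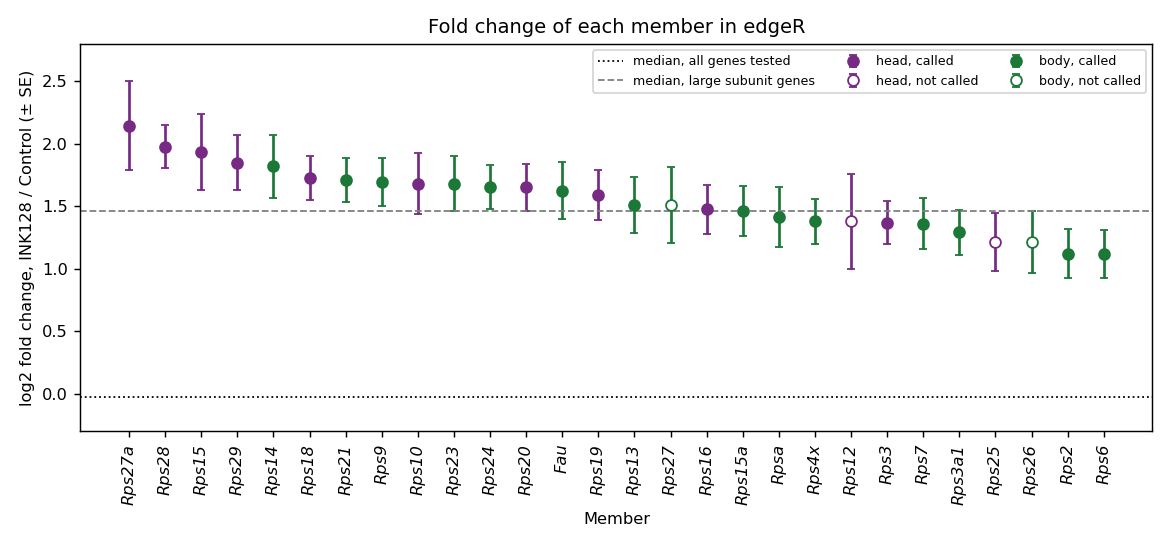
Log2 fold change of each member with its standard error (edgeR, n = 2 per group), purple for the head and green for the body, filled where called and open where not. The points run from 2.15 for Rps27a to 1.12 for Rps6, and all lie above the median of all genes tested (dotted line, −0.03).

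Several members are known for roles beside protein synthesis or for disease. Rpsa, also known as a laminin receptor precursor, lies on chromosome 9 from 120127689 to 120132369 and had 2647 and 3120 CPM with INK128 and 1244 and 918 CPM in controls, and rose by 1.42 on the log2 scale (SE 0.24, with an edgeR adjusted p of 0.0486). Rps19, the gene most often mutated in Diamond-Blackfan anemia, is on chromosome 7 from 24884371 to 24889806. It had 1263 and 1057 CPM against 367 and 404 CPM, a log2 fold change of 1.59 (SE 0.20, with an edgeR adjusted p of 0.0464). Rps4x is X-linked, on chromosome X from 102184941 to 102189394, and had 1937 and 1890 CPM against 772 and 698 CPM. Its log2 fold change was 1.38 (SE 0.18, with an edgeR adjusted p of 0.0464), and its level was close in control replicate 1, the library with Y-linked reads, and in control replicate 3. Fau, a ubiquitin-like protein fused to a body protein, is on chromosome 19 from 6057844 to 6059524 and had 864 and 1049 CPM against 347 and 273 CPM. Its log2 fold change was 1.62 (SE 0.23, with an edgeR adjusted p of 0.0464).

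By position in the subunit, the median log2 fold change was 1.67 for the 12 head members (range 1.21 to 2.15), of which 10 were called. The 16 body members had a median of 1.48 (range 1.12 to 1.82) and 14 were called. Of the head members, 8 lay above the median of all 28, and of the body members 6. The remaining body members included Rps9, Rps14, Rps21, Rps23 and Rps24, with log2 fold changes of 1.69, 1.82, 1.71, 1.68 and 1.66. Rps9 and Rps23 are among the proteins that keep decoding accurate, and Rps14 lies on the platform. Rps3a1, Rps7, Rps13 and Rps15a, also in the body, rose by 1.29 to 1.51 on the log2 scale. In the head, Rps3 and Rps16 rose by 1.37 and 1.48, and Rps10, Rps18 and Rps20 by 1.65 to 1.73. All of these had adjusted p-values of 0.0464 in edgeR. Rps10 and Rps18 overlap other annotated genes, and reads of the overlaps are uncertain.

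Members were next set against each other within each library, which does not depend on the scaling between libraries. For each library the mean log2 CPM of the 28 members was subtracted from each member. Relative to the rest, Rps6 stood at 0.36 and 0.46 in the INK128-treated rOvaries and at 0.91 and 0.79 in controls. This was a difference of −0.44 for Rps6, and the groups did not overlap. Rps2 stood at 0.53 and 0.22 with INK128 and at 0.78 and 0.85 in controls, a difference of −0.45. Rps25, Rps26, Rps3a1, Rps7, Rps3 and Rps4x also stood lower without overlap, with differences of −0.33, −0.33, −0.27, −0.20, −0.19 and −0.18. Single libraries moved several of these differences while leaving their direction: without control replicate 1 those of Rps25 and Rps26 were −0.17 and −0.12 (−0.50 and −0.53 without control replicate 3), without INK128 replicate 1 that of Rps7 was −0.09 (−0.31 without INK128 replicate 2), and without INK128 replicate 2 those of Rps2 and Rps3a1 were −0.29 and −0.18.

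In the other direction, Rps28 stood at −1.18 and −1.17 with INK128 and at −1.67 and −1.51 in controls, a difference of 0.41 with no overlap. Rps18, Rps21 and Rps24 also stood higher without overlap, with differences of 0.17, 0.15 and 0.10. Without control replicate 1 the differences of Rps18 and Rps21 were 0.08 and 0.06, and without control replicate 3 that of Rps21 was 0.24. Rps27a had a larger difference of 0.64, but its values of −0.17 and −0.56 with INK128 overlapped with −1.46 and −0.53 in controls, and the difference was 0.17 without control replicate 1 and 1.10 without control replicate 3. Rps19 kept its place among the members, with 0.08 and −0.20 against −0.20 and 0.03. With 2 libraries per group these differences of 1 member from the rest could not be tested below an exact p of 0.333. Across the 28 members, the log2 fold change correlated with the log2 length of the coding sequence (Pearson's r = −0.506, Spearman's rho = −0.35). With log2 transcript length these 2 values were −0.306 and −0.452, and with GC content 0.261 and 0.361. They are a description over genes that share the same 4 libraries.

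**Figure D3:**
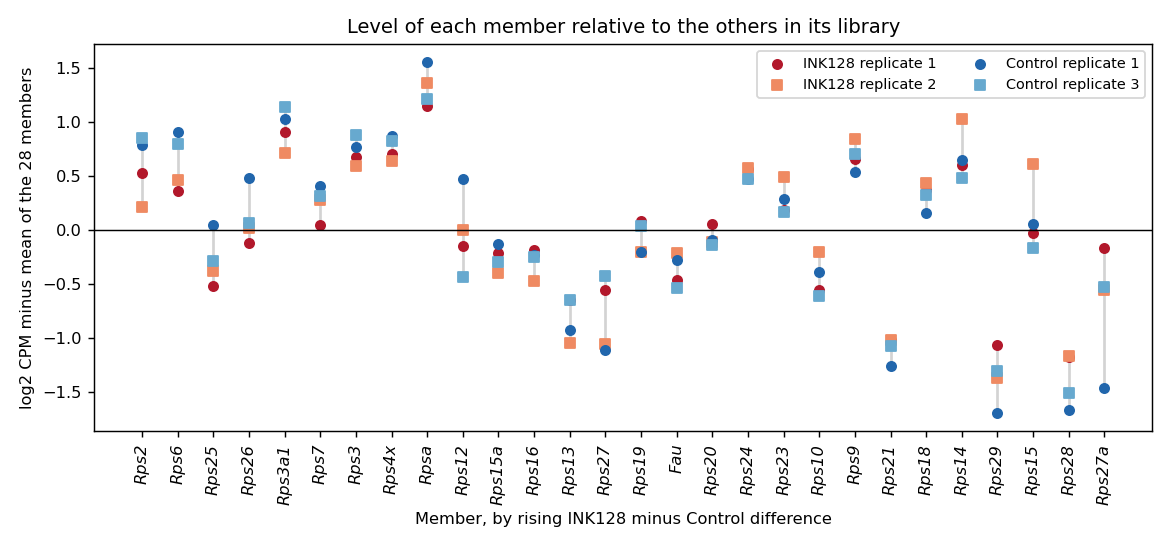
Log2 CPM of each member minus the mean of the 28 members in the same library, ordered by the INK128 minus control difference, with a grey line over the range of the 4 libraries. Rps2 and Rps6 at the left have both INK128 points below both control points, while Rps28 at the right stands higher and the points of Rps27a overlap.

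To compare levels between genes, CPM were divided by the length of the coding sequence in kb. On this scale the control means ran from 456 CPM per coding kb for Rps27a to 1453 for Rps26, a 3.19-fold span. In the INK128-treated rOvaries they ran from 1490 CPM per coding kb for Rps13 to 4724 for Rps14, a 3.17-fold span. The span over single libraries was 2.70-fold and 4.21-fold with INK128, and 5.23-fold in control replicate 1 and 2.64-fold in control replicate 3, so it varied more within a group than between the means. Rps27a was the lowest member in control replicate 1, with 326 CPM per coding kb, but not in control replicate 3, with 586, where Rps10 was lowest. With INK128 it had a mean of 2019 CPM per coding kb. Rps24 was high in both groups, with 1422 CPM per coding kb in controls and 4485 with INK128.

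The rest of the ribosome moved with the members. Rack1, the scaffold protein of the head, had 1882 and 2056 CPM with INK128 and 797 and 868 CPM in controls, and was called as higher with a log2 fold change of 1.24 (SE 0.18, with an edgeR adjusted p of 0.0464). Of the 47 large subunit genes, 39 were called as higher and 0 as lower in edgeR, with a median log2 fold change of 1.47. DESeq2 called all 47 as higher and limma voom 0. The shares of all genes called as higher were 3.18% in edgeR and 13.6% in DESeq2, and limma voom called 0 of all genes. With principal transcript offsets, where edgeR called 0 of all genes, the median of the large subunit genes was 0.82. The 2 largest rises among them were in Rpl38 (1.94) and Rpl21 (1.94), and the 2 smallest log2 fold changes were those of Rpl3 (1.03, adjusted p = 0.0515, edgeR) and Rpl4 (0.94, adjusted p = 0.0507, edgeR), which did not pass. The ratio of summed counts of the 28 members to those of the large subunit genes was 0.644 and 0.639 with INK128 and 0.625 and 0.583 in controls. The means differed by 0.0379 (0.0586 without control replicate 1 and 0.0173 without control replicate 3), which was of the order of the SD in controls (0.0292, n = 2), and the exact permutation test gave p = 0.333. On the median of log2 CPM in place of sums the difference was 0.02 and the groups overlapped (exact permutation p = 1).

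Factors that build the small subunit were examined next. Of 14 assembly factors tested, 0 were called in either direction in edgeR, 4 had an unadjusted p below 0.05 in both edgeR and limma voom (36.4% and 33.8% of all genes in either direction), and DESeq2 called 4 as higher, with 13.6% of all genes called in that direction. Their median log2 fold change was 0.43, against 1.55 for the members. It was 0.22 without control replicate 3, where the members had 1.54, and 0.22 with principal transcript offsets, where the members had 0.91. The largest values were in Tsr3 (1.17, adjusted p = 0.0559) and Bysl (0.88, adjusted p = 0.0526), and the smallest in Tsr1 (−0.20, adjusted p = 0.423) and Riok3 (−0.32, adjusted p = 0.242), all in edgeR. The difference between these lists was not tested.

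In a list of 15 genes of mTORC1, the S6 kinases, the RSK kinases and translation control, 1 was called in edgeR. Of all genes, 3.18% were called as higher and 3.19% as lower. Rps6ka2, a kinase of the RSK family, had 33.6 and 32.4 CPM with INK128 and 129 and 179 CPM in controls, and fell by 2.22 on the log2 scale (SE 0.23, with an edgeR adjusted p of 0.0464). The S6 kinase Rps6kb1 had 39.8 and 36.7 CPM against 41.7 and 50.6 CPM (log2 fold change −0.27, adjusted p = 0.361, edgeR). Mtor, the kinase that INK128 inhibits, had 43.3 and 37.5 CPM against 89.4 and 73 CPM (log2 fold change −1.01, adjusted p = 0.0526, edgeR). Eif4ebp1, an inhibitor of cap-dependent translation, had 75.5 and 80.3 CPM against 47.6 and 39.3 CPM (log2 fold change 0.84, adjusted p = 0.0591, edgeR). Larp1, which binds TOP mRNAs, had 116 and 96.5 CPM against 134 and 165 CPM (log2 fold change −0.50, adjusted p = 0.158, edgeR). The median of the list was −0.27 (−0.42 without control replicate 1), and its sign turned with the length offsets, to 0.12 with exon length and 0.28 with principal transcript length. DESeq2 called 2 of its genes as higher and 3 as lower, where it called 13.6% of all genes as higher and 15.1% as lower.

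Fold changes in these libraries varied with transcript length, and the members are short. Their annotated principal transcripts had a median of 882.5 bases, against 3060 for all genes tested, and Rps15a and Rps20 are listed with long forms. Over 11700 genes the log2 fold change correlated with log2 transcript length (Pearson's r = −0.382, Spearman's rho = −0.543, across genes of the same libraries). Genes with transcripts of up to 1000 bases, without the listed cytosolic ribosomal protein genes (940 genes), had a median of 0.82, and 15% were called as higher. Mitochondrial ribosomal protein genes and pseudogenes were not taken out of this set. Those over 3000 bases (5999 genes) had a median of −0.38, and 0.417% were called as higher. The members thus lay above other short genes as well as above all genes, by 0.73 on the log2 scale against the 940 short genes.

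**Figure D4:**
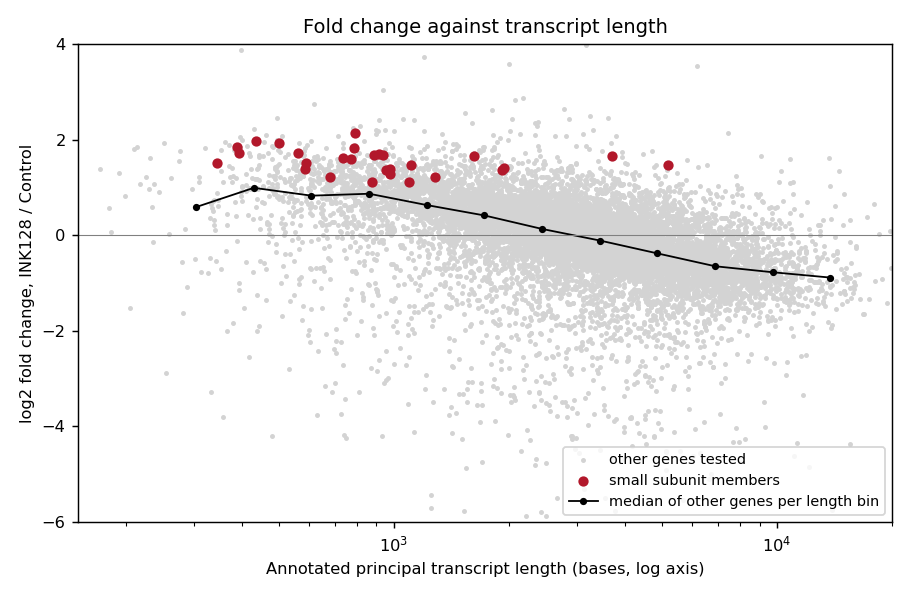
Log2 fold change of each tested gene against the length of its annotated principal transcript (log axis), with the small subunit members in red and the median of the other genes per length bin in black. The black line falls from short to long transcripts, and the members lie above it. The axes leave out 86 genes.

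With offsets for exon length in each library, the median log2 fold change of the members was 1.24, and with offsets for the length of the principal transcript, added after the data were seen, of 0.91. All 28 members stayed positive in both, with a lowest value of 0.43, that of Rps6. In these fits edgeR called 0 of all 11758 genes in either direction. With exon length the adjusted p-values of the members ran from 0.0731 to 0.179, and 28 had an unadjusted p below 0.05, as had 16.8% of all genes in the same direction. With principal transcript length they ran from 0.0793 to 0.354, and 23 had an unadjusted p below 0.05, as had 14.2% of all genes in the same direction. Under the principal transcript offset Rps28 had a log2 fold change of 1.15 and Rps27a of 1.41.

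The calls also depended on single libraries. Without INK128 replicate 1 or without INK128 replicate 2, edgeR called 0 genes of all tested, the members included, so the 0 says nothing about the members. In each case 27 of the 28 had an unadjusted p below 0.05, as had 6.63% and 5.35% of all genes in the same direction. Without control replicate 1 or without control replicate 3, it called 28, where it also called 22.7% and 21.3% of all genes as higher. The median log2 fold change stayed between 1.51 and 1.64 in these 4 fits. Control replicate 1, with Y-linked and Sertoli cell transcripts, and control replicate 3, with the most kidney and the fewest oocyte transcripts, each gave the same direction for all 28 members.

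**Figure D5:**
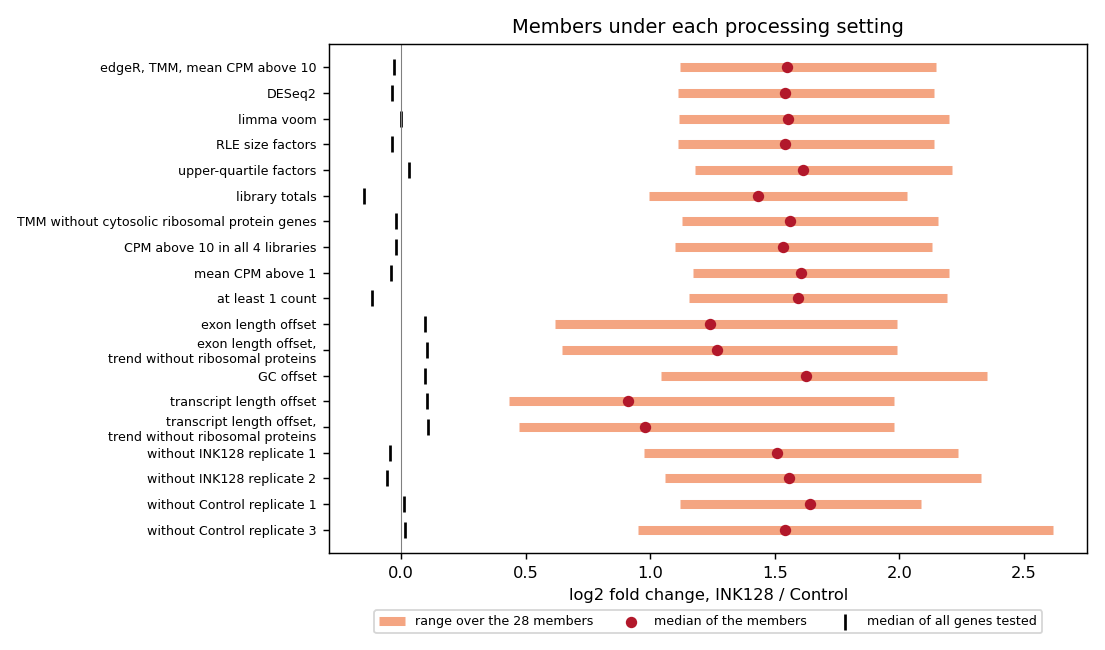
Median (red point) and range (bar) of the log2 fold changes of the 28 members in the main fit and under 18 other settings, with the median of all genes tested as a black tick. Every bar lies to the right of 0, the lowest member value is 0.43, and the medians run from 0.91 with the principal transcript offset to 1.64 without control replicate 1.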

How the data were processed

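According to the methods of the study, the authors made NEBNext Ultra libraries, used Trimmomatic for trimming, Hisat2 for alignment (mm10) and featureCounts for counting in an annotation named RefGene. Versions and the use of strand or of multi-mapping reads are not given in the sources used here. The authors deposited raw counts per gene symbol, 1 column per library, which were matched to the labels by name.

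Counts were scaled with TMM factors and tested with edgeR 4.0.16 (R 4.3.3) on 11758 genes whose CPM averaged more than 10, with Benjamini-Hochberg adjustment over all of them. The adjusted p limit of 0.05 and the fold limit of 1.5 are those of the study. DESeq2 1.42.0 and limma 3.58.1 were alternatives. Log2 CPM used a pseudocount of 0.5. Standard errors came from the fold change and its F statistic. Nothing in the labels says whether the libraries came from separate animals, so p-values measure the spread between these libraries. Positions and lengths came from GENCODE M21 (mm10), where 53447 of 54021 symbols matched, and start sequences from RefSeq (GRCm38.p6). Offsets were smooth trends of each library (lowess span 0.3) in length or GC content.

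The members and lists were chosen with earlier results of these data known. Members with the 4 largest and 4 smallest fold changes, those not called and 6 genes of known role are given with every value. From other lists, called genes are named where 5 or fewer, otherwise the 2 largest and the 2 smallest. Larp1, Rps6kb1, Mtor, Eif4ebp1, and the members given only by their fold change or by their level per coding kb, were named after their values had been seen. Protein sequences were not used here. Some other genes of the subunit are not reported here.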

Additional observations from a re-analysis of the deposited data

How the results depend on the processing

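All 28 members kept a positive log2 fold change under all 18 alternatives to the main fit. The number called as higher was 24 in the main fit and fell to 0 with limma voom, with a filter at a mean CPM above 1, at an adjusted p below 0.01 and with each of the 4 length offsets, and in each of these settings 0 of all genes tested were called in either direction, so the counts do not set the members apart. Leaving out each library in turn gave 0 to 28 called members (0 of all genes without either INK128 library) and medians of 1.51 to 1.64 (1.64 without control replicate 1), where the lone library of a group is assumed to vary like the other group. The medians moved from 1.55 to 1.43 with library totals, which also shifted the median of all genes to −0.15, to 1.62 with GC offsets, to 1.24 with exon length offsets (1.27 with the trend fitted without ribosomal protein genes), and to 0.91 with principal transcript offsets (0.98 with the trend fitted without ribosomal protein genes). The last pair was chosen after the data were seen. The lost calls under limma voom and the filter came with lowest adjusted p-values of 0.0599 and 0.0555 for the members, and the cause was not tested. With genes of at least 1 count (31483 genes), 28 were called, where 1152 of all these genes were called as higher and 1953 as lower. No paired analysis was possible because the groups share a single replicate number, 1.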

Other observations

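Close copies of small subunit genes showed the same direction at much lower levels. Rps4l, a copy of Rps4x, had 78.4 and 104 CPM with INK128 and 35.6 and 24.8 CPM in controls, and rose by 1.60 on the log2 scale (SE 0.28, with an edgeR adjusted p of 0.0487). Rps27rt had 93.2 and 118 CPM against 55.1 and 36.1 CPM (log2 fold change 1.21, adjusted p = 0.0618, edgeR), and Rps27l had 134 and 148 CPM against 93.5 and 65 CPM (log2 fold change 0.83, adjusted p = 0.085, edgeR). Near-identical copies can share reads with their parent genes, so these values are uncertain.

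The table also holds 112 rows named as pseudogenes of small subunit genes. They summed to 20472 and 22809 counts with INK128 and to 10742 and 8767 counts in controls. Set against the counts of the 28 members in the same library, this was 3.03% and 2.75% with INK128 and 3.46% and 2.98% in controls, so the groups overlapped only between INK128 replicate 1 and control replicate 3.

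Of the members, 8 carry annotated small nucleolar RNA genes within their span, 15 such genes in all, among them Rpsa, Rps3, Rps3a1 and Rps12. The 28 members are spread over 14 chromosomes.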
